A study of Mus musculus with 9 samples.

Results

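Wild type alveolar macrophages, sorted from the lungs of 1-week-old mice, were described here on their own, as a baseline transcriptome. They make up 4 of the 9 RNA sequencing libraries of the series, and the other 5 carry a conditional knockout of Suz12 and entered no comparison. All named genes of the joint count table were taken as members, which gave 25275 of its 27179 gene identifiers. The wild type mice were of the C57BL/6 strain, 1 week of age and untreated as far as the labels say, and the series title places the origin of these cells in the foetus. The series text calls the 4 libraries biological replicates. The sources used here give neither the sorting gate nor the sex of the mice, and do not say whether a library came from a single mouse or a pool. Nor do they say whether the wild type mice carried unrecombined Suz12 alleles or a Cre transgene.

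Alveolar macrophages live in the airspaces of the lung, where they take up inhaled particles, dying cells and spent surfactant. They descend largely from foetal monocytes that seed the lung around birth, and mature in the days after birth under the growth factor GM-CSF and TGF-beta, which induce the lipid-sensing nuclear receptor PPARG. Mature cells are known for high levels of the lectin Siglec-F and the integrin CD11c, for lipid handling, for renewing themselves by division and for low levels of the integrin CD11b.

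Levels are transcripts per 1e6 (TPM), computed here from the deposited counts and gene lengths, so that genes of different length can be set side by side. A value after ± is the SD over the 4 libraries (n = 4), and values per library are in the order wild type 1 to 4. A gene was called on where it reached at least 1 TPM in each of the 4 libraries, silent where no library held more than 3 of its counts, and low or uneven otherwise. For a gene of the median length of 2076 bases, 3 counts correspond to between 0.103 and 0.181 TPM, depending on the library. Such limits cover counting error at most, and not variation between libraries. The sources used here mention no molecular identifiers, so reads copied from the same molecule could not be told apart. As there is a single group, no test between groups was made, and an exact paired test over 4 libraries could not reach a p of 0.05. Counts over lists of protein-coding genes are read against the share of all protein-coding named genes, of which 46.7% were on and 39.1% silent. All lists were chosen with earlier results of these data known, so a high share on may be built in.

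Depth was 22.5, 24.8, 13.8 and 25.3 M gene counts (M, 1e6), a mean of 21.6 ± 5.34 M. Wild type 3 was the shallowest library and stood apart. Over the 10233 genes that were on, the Pearson correlation of log2 levels between pairs of libraries ran from 0.9636 to 0.983 across genes, which are not independent replicates, and the 3 pairs with wild type 3 were the 3 lowest. Genes absent from a single library, with 0 counts there and at least 20 in each of the others, numbered 6, 14, 111 and 11. Wild type 4 also differed from the rest in its sex-linked transcripts. Xist, the RNA of the inactive X chromosome in female cells, had 43.8, 41.2, 29.6 and 0.00398 TPM, with another counted gene overlapping it, and the Y-linked translation factor gene Eif2s3y had 0, 0, 0 and 98.1 TPM. Ddx3y, Uty and Kdm5d, also on the Y chromosome, were at or near 0 in wild type 1 to 3, with Ddx3y at 25.6 TPM in wild type 4. Where wild type 3 set a named gene apart, its value there or the mean without it is mostly given below.

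Of the named genes, 10233 were on, or 40.5% of all, and 11283 were silent, or 44.6%, with 10949 of them at 0 counts in every library. The other 3759 were low or uneven. Without wild type 3, 10464 were on. Among the 20979 protein-coding genes, 46.7% were on and 39.1% silent, whereas 117 of 2077 long noncoding RNA genes and 0 of 374 immunoglobulin and T cell receptor V segments were on. The mean level was at least 1000 TPM in 119 genes, at least 100 TPM in 1616 and at least 10 TPM in 7589. The median was 0.246 TPM over all named genes and 22.8 TPM over those that were on. The 10 most abundant named genes took 12.3 ± 1.48% of all TPM and the 100 most abundant 29.9 ± 1.82%. These 100 included 20 cytosolic ribosomal protein genes, 8 genes of the mitochondrial genome and 12 pseudogenes or predicted gene models.

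**Figure D1:**
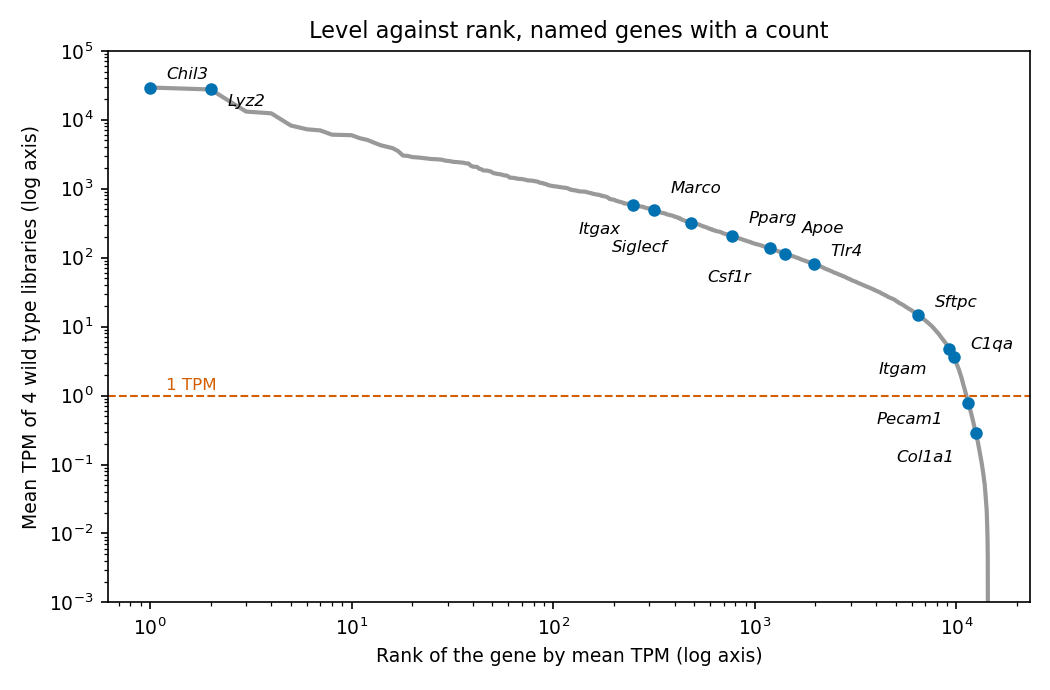
Mean TPM of the 4 wild type libraries against the rank of each named gene with a count, both on log axes, with a dashed line at 1 TPM. Chil3 and Lyz2 lead, the surface markers Itgax, Marco and Siglecf lie between 322 and 583 TPM on average, and Pecam1 and Col1a1, markers of endothelium and fibroblasts, lie under 1 TPM.

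The most abundant transcripts were Chil3, Lyz2, Fth1 and Ccl6. Chil3 (Entrez Gene 12655, chromosome 3, positions 106147554 to 106167564 of GRCm38) encodes a secreted chitinase-like lectin also known as Ym1. It had 19625, 17179, 52080 and 28357 TPM, and its level in wild type 3 was 2.4 times the mean of the other libraries, 21721 ± 5876 TPM (SD, n = 3). Lyz2 (Entrez Gene 17105, chromosome 10, positions 117277541 to 117282272 of GRCm38), the lysozyme of macrophages, had 28973, 26173, 25984 and 28690 TPM. Lyz2 was thus the highest named gene in 3 libraries and Chil3 in wild type 3, and their order is not settled by these libraries. Fth1, the heavy chain of the iron store ferritin, followed at 13121 ± 513 TPM, and Ccl6, a chemokine of the CC class, at 12364 ± 1023 TPM. The ranges of these 2 genes overlapped.

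Next in rank came the tetraspanin Cd9 at 8240.5 ± 472 TPM, the ribonuclease Ear2 at 7269 ± 623 TPM and the lysosomal protease Ctsd at 6990.1 ± 613 TPM. The group that followed held actin (Actb, 6066 ± 769 TPM), cathepsin S (Ctss, 6002 ± 208 TPM), the mitochondrial COX1 (5963 ± 429.9 TPM), the ribosomal protein gene Rplp1 (5387 ± 515 TPM) and the sphingolipid activator precursor Psap (4617 ± 239 TPM). These were followed by the ferritin light chain Ftl1 at 4251 ± 303 TPM and the signalling adaptor Tyrobp at 4053 ± 167 TPM. Mir682 ranked among them at 5084 ± 384 TPM, but its annotated length of 96 bases is close to the read length of 85 bases, so its length-scaled level is uncertain. The ferritins, the lysosomal proteins and the secreted Chil3, Lyz2, Ccl6 and Ear2 thus filled the top ranks together with genes of general use.

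Chil3 and Lyz2 each have a close neighbour on the same chromosome that was abundant too. Chil4 had 1623, 1362, 4112 and 2206 TPM, highest in wild type 3 and lowest in wild type 2, in the same order of libraries as Chil3. Lyz1 had 2864, 2489.5, 2620.2 and 2772 TPM and kept within a narrow range, as did Lyz2. Of all stretches of 85 bases in the transcripts of Chil3, 5.45% also occur in those of Chil4, and of those of Lyz2, 4.38% occur in those of Lyz1, so a small part of the reads could belong to either gene. The 250 bases before the annotated start of these 4 genes are shown because the pair Chil3 and Chil4 varied together between libraries while the pair Lyz2 and Lyz1 varied little. They come from RefSeq on GRCm38.p6, all on the minus strand, and run 5′ to 3′. Capitals mark the letters TATAAA, searched on both strands.
Chil3, chr3:106167565-106167814: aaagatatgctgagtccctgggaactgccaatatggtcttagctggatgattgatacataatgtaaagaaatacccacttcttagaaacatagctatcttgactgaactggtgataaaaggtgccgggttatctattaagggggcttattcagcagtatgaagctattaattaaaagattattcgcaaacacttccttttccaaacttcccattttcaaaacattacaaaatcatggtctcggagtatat
Chil4, chr3:106219480-106219729: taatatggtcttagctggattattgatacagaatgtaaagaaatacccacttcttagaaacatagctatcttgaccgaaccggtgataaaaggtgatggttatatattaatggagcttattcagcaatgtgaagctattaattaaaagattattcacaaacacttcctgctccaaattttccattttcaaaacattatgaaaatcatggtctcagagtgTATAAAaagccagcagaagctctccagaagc
Lyz2, chr10:117282273-117282522: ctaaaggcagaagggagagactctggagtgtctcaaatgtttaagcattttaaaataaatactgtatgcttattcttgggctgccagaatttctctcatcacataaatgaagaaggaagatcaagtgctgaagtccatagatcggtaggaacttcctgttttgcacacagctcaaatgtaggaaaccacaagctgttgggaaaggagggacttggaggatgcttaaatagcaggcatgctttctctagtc
Lyz1, chr10:117292869-117293118: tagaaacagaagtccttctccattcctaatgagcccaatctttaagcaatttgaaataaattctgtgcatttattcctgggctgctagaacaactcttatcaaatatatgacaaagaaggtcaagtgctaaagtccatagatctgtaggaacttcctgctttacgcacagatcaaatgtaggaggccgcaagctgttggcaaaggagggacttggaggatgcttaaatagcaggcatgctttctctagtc
In a global alignment, Chil3 and Chil4 shared 201 of 221 aligned bases (91% identity, with 58 gap positions), and Lyz2 and Lyz1 shared 200 of 248 (80.6%, with 4 gap positions). TATAAA was found 31 bases before the start of Chil4 and in none of the other 3 stretches. By the bases it shares with Chil4, the stretch of Chil3 ends within the place where Chil4 has TATAAA. The bases past the annotated start of Chil3 were not part of this search. No match says only that these letters are not in the stretch. A match to these letters is a description of the sequence only.

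All 5 markers of alveolar macrophages were on. Besides Chil3, the integrin gene Itgax (Entrez Gene 16411, chromosome 7, positions 128129526 to 128150657), which encodes CD11c, had 548, 616, 575 and 594 TPM. The scavenger receptor gene Marco (17167, chromosome 1, 120474538 to 120505024) had 491, 588, 432 and 465 TPM. Siglecf (233186, chromosome 7, 43351341 to 43359475) had 339, 388, 265 and 295 TPM. Pparg (19016, chromosome 6, 115360879 to 115490404), the nuclear receptor that sets the identity of these cells, had 210.1, 237, 177 and 205 TPM. Each of these defining markers of the labelled cell type was thus present in each of the 4 libraries. Marco, Siglecf and Pparg were lowest in wild type 3 and highest in wild type 2, whereas Chil3 was in the opposite order.

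**Figure D2:**
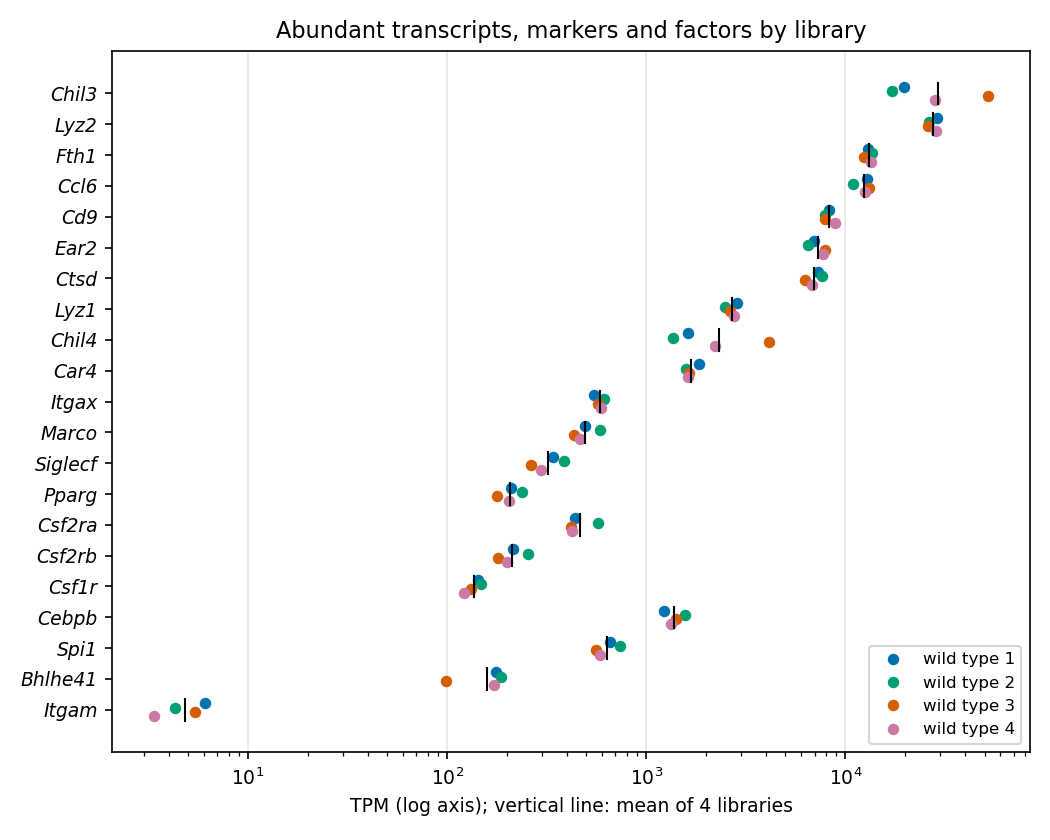
TPM on a log axis for 21 abundant transcripts, markers and transcription factors, with a point for each wild type library and a vertical line at the mean. Most genes keep their 4 points close together, whereas Chil3 and Chil4 are highest in wild type 3 and Itgam, at a mean of 4.8 TPM, lies far below Itgax.

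A longer list of 43 genes known from alveolar macrophages was on in full, with a median of 494 TPM and a sum between 96114 and 131060 TPM. Over all protein-coding genes 46.7% were on, and this list was chosen with earlier results of these data known. Besides those already named the list included Car4, a membrane-bound carbonic anhydrase, at 1672 ± 112 TPM, and Atp6v0d2, a subunit of the proton pump of lysosomes, at 1172 ± 59 TPM. The inflammasome cytokine Il18 had 1066 ± 55.5 TPM, the keratin Krt19 936 ± 91.5 TPM, the fatty acid binding protein gene Fabp1 787 ± 116 TPM and lipoprotein lipase, Lpl, 779 ± 146 TPM. The eosinophil-associated ribonucleases Ear2, Ear1 and Ear10 all belonged to the abundant transcripts, with Ear1 at 1556 ± 152 TPM and Ear10 at 735 ± 72.8 TPM. Of the 85-base stretches of Ear2, 15.9% occur in Ear10, so the split of reads between these paralogs is uncertain.

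Of 16 genes shared by most macrophages, 15 were on, among them Lyz2, Tyrobp, Laptm5 (2375 ± 271 TPM), Fcer1g (1633 ± 58.1 TPM), Cd68 (1238 ± 52.2 TPM) and Adgre1, the gene of the F4/80 antigen (161 ± 17.9 TPM). Itgam, which encodes CD11b, was on at only 4.8 ± 1.21 TPM, with 6.1, 4.3, 5.43 and 3.37 TPM in the 4 libraries. Itgax was above it by a wide margin in each library. Aif1 was the member that was not on, with 2.46, 0, 10 and 2.2 TPM, since wild type 2 held none of its reads.

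Among 47 transcription factors of the macrophage lineage, 41 were on and none was silent, beside 46.7% on over all protein-coding genes. This list, too, was chosen with earlier results of these data known. The most abundant was Cebpb (1233, 1556, 1404 and 1339 TPM), a C/EBP factor induced by inflammatory signals. Spi1, which encodes PU.1, the lineage factor of myeloid cells, had 658, 741, 562 and 587 TPM, and Cebpa had 335, 469.9, 324 and 404 TPM. The zinc finger factors Klf4 and Klf6 stood at 224 ± 54.7 and 183 ± 20.1 TPM. Bhlhe40 and Bhlhe41, a pair of repressors known to sustain renewal of alveolar macrophages, had 188 ± 23.1 and 158 ± 39.7 TPM, with Bhlhe41 lowest in wild type 3. Egr2, Tfec and Id2 were on at 131 ± 41.6, 189 ± 16.1 and 220.1 ± 17.1 TPM. Maf, a factor of many other resident macrophages that restrains division, was not on, at 0.701, 0.72, 0 and 0.294 TPM. Bach2, Runx3, Mycl and Mycn were not on either, whereas Myc was at 59.8 ± 11.7 TPM.

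Markers of macrophages of other tissues were partly on, and several that define a tissue were silent. From the list for the interstitial macrophages of the lung, 11 of 20 were on (55%), close to the 46.7% of all protein-coding genes. Its C1q genes were low, with C1qa at 3.61 ± 1.75 TPM and C1qb at 0.536 ± 0.62 TPM, and Cd163, Lyve1, Folr2 and Timd4 lay under 1 TPM in every library. The sum of the list was between 380.3 and 1166 TPM and was highest in wild type 3, where the MHC class II genes that belong to it were high. Those were Cd74 with 91.4, 109, 421 and 126 TPM and H2-Ab1 with 47.6, 56, 232 and 65.9 TPM. Without wild type 3 they were at 109 ± 17.5 and 56.5 ± 9.19 TPM (SD, n = 3). Apoe had 111, 136, 127 and 80.1 TPM. In bulk libraries, fewer cells of a type and less RNA per cell cannot be told apart, and the part that other macrophages played in these values was not tested. Of the monocyte list, 10 of 16 were on (62.5%), beside the same 46.7%, and its sum was 577, 704, 873 and 685 TPM. It was led by fibronectin (Fn1, 411 ± 59.5 TPM), which other cells also make, whereas Ly6c2 had 0, 0, 0.156 and 4.19 TPM. The chemokine receptor Ccr2 had 8.02, 15.5, 18.4 and 8.83 TPM.

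The Kupffer cell markers Clec4f, Vsig4 and Cd5l had 0 counts in all 4 libraries, and so had the microglia markers Sall1 and Siglech, the Langerhans cell marker Cd207 and Vcam1 of red pulp macrophages. Spic, the factor of red pulp macrophages, had 0, 0, 2.28 and 0 TPM, and Gata6, that of peritoneal macrophages, had 0.325, 0, 0 and 0 TPM. Other members of these lists were on, such as Hmox1 (131 ± 19.5 TPM) from the red pulp list, and Nr1h3 (50 ± 8.83 TPM), which encodes the sterol sensor LXR alpha, from the Kupffer cell list. The osteoclast list gave 5 of 10 on, with Atp6v0d2, Ctsk (948 ± 176 TPM) and Acp5 (186 ± 25.5 TPM) as its leading members, while the calcitonin receptor Calcr and Oscar were at 0. E-cadherin (Cdh1, 68.6 ± 11.3 TPM) and the uptake receptor Ly75 (174 ± 20.8 TPM) were on from the Langerhans cell list. The 6 lists for microglia, Kupffer cells, peritoneal and red pulp macrophages, osteoclasts and Langerhans cells thus held 2 to 5 members that were on, and the defining genes named were at or near 0.

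Markers of other cell types of the lung and blood were low as whole lists or rested on a few members. The 5 eosinophil markers summed to between 0.0218 and 1.34 TPM, with Prg2, Epx and Prg3 at 0, and the 8 mast cell and basophil markers to between 0 and 0.569 TPM. None of either list was on. Sums of the T cell list lay between 4.15 and 19.8 TPM (1 of 10 on), those of the NK and innate lymphoid list between 0.389 and 5.43 TPM (0 of 8 on) and those of the B cell list between 4.43 and 20.9 TPM (2 of 8 on). The neutrophil list held 5 of 12 on, with S100a8 at 94.4 ± 15.8 TPM, S100a9 at 9.03 ± 5.8 TPM, and Ly6g, Mpo and Elane at 0. The dendritic cell list held 3 of 11 on, and its lineage genes Flt3 and Zbtb46 lay under 1 TPM in every library.

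Among structural cells, endothelial markers summed to between 22.9 and 40.1 TPM, nearly all of it von Willebrand factor (Vwf, 31 ± 6.49 TPM), while Tek, Emcn and Tie1 were at 0. The fibroblast sum of 349.9 to 489 TPM was nearly all Fn1, with Col1a1 at 0.287 ± 0.509 TPM and Lum at 0. For the type 2 alveolar epithelium, the sum of 119 to 133 TPM came mostly from Napsa (84.6 ± 11 TPM) and Abca3 (25.2 ± 5.11 TPM). Its secreted product Sftpc, the surfactant protein C, had 11.4, 6.14, 21.2 and 19.9 TPM, and Slc34a2 was at 0. The club cell secretoglobin Scgb1a1 had 2.04, 7.08, 8.03 and 32 TPM, and the sum of its list ran from 2.04 to 73.1 TPM, with wild type 4 far above the rest. Haemoglobin transcripts were present in each library and uneven, with Hbb-bs at 89.8, 14.2, 76.7 and 17.3 TPM, while Slc4a1 and Klf1 of the red cell lineage were at 0. The globins Hba-a1 and Hba-a2 share 66.1% of the 85-base stretches of Hba-a1 and were not separated further. Whether cells of these types or RNA from outside the sorted cells gave these reads was not tested.

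**Figure D3:**
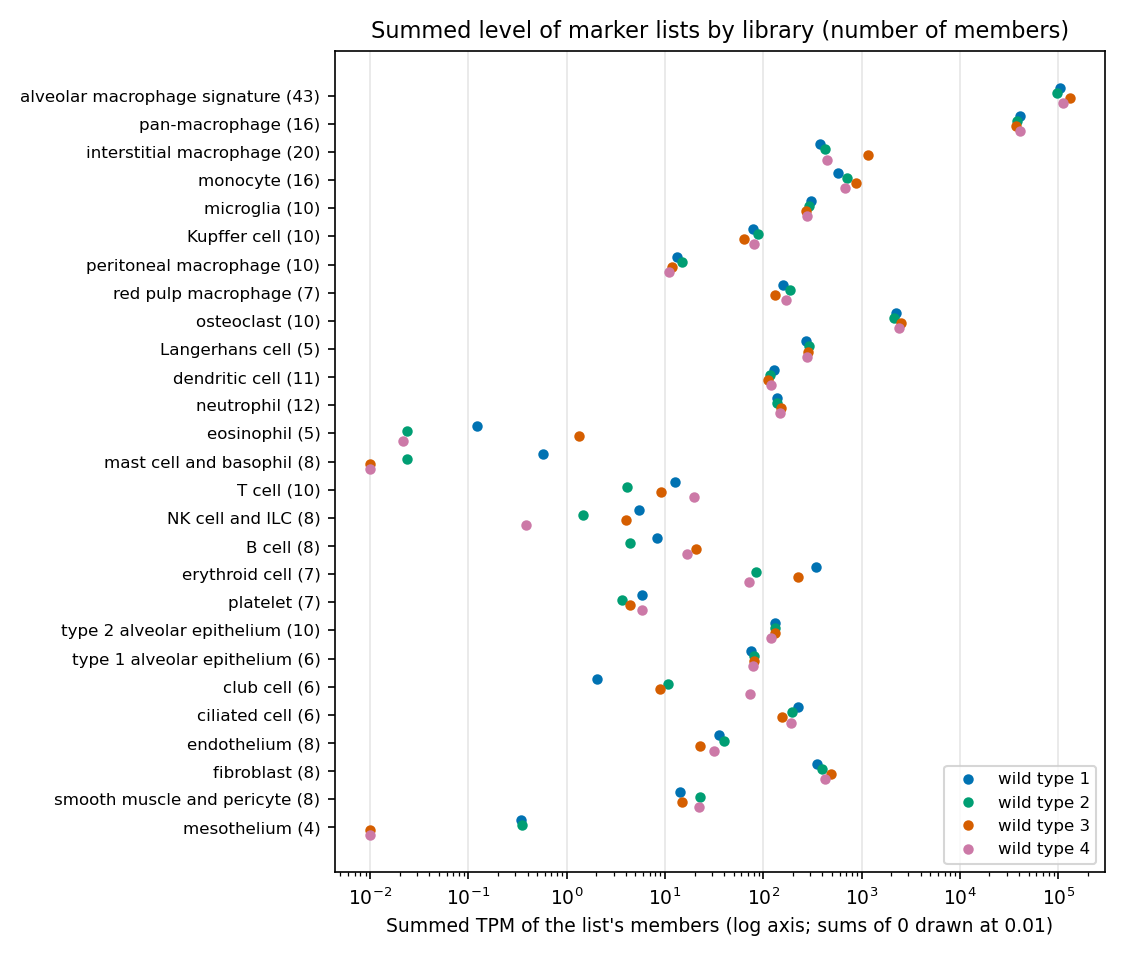
Summed TPM of each marker list on a log axis, with a point per wild type library and the number of members in brackets, and sums of 0 drawn at 0.01. The alveolar macrophage signature lies between 96114 and 131060 TPM, and the eosinophil, mast cell and mesothelium lists lie under 2 TPM.

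Receptor genes were taken from 21 lists with 440 genes, of which 195 (44.3%) were on and 130 (29.5%) silent, beside 46.7% and 39.1% of all protein-coding genes. The share that was on is thus close to the background, and the lists differed widely among themselves. Summed receptor levels were 2.24, 2.38, 2.10 and 2.22% of all TPM. Without wild type 3, 197 were on and 141 silent.

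**Figure D4:**
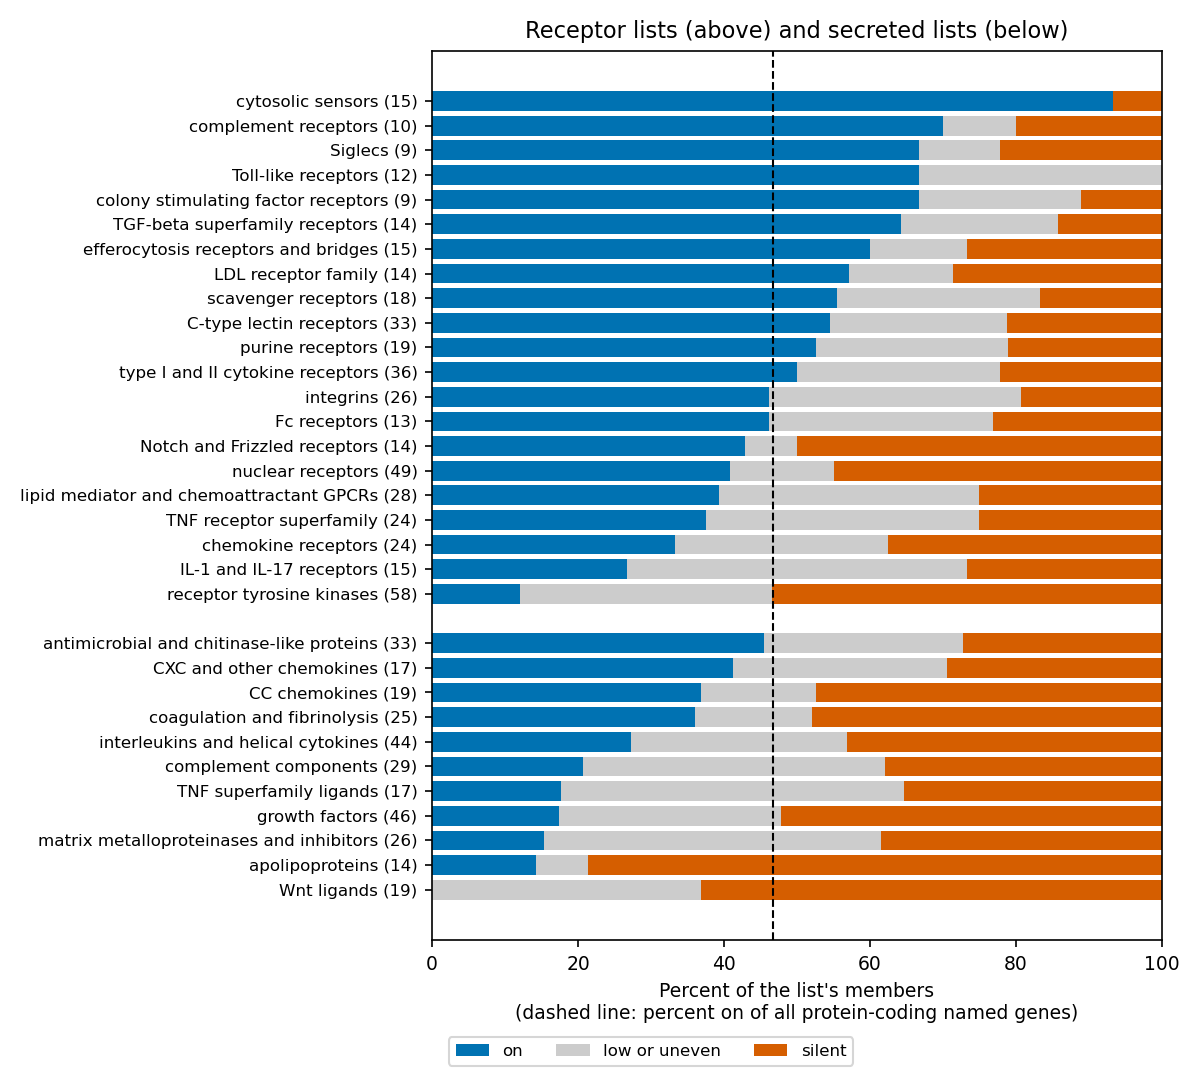
Percent of the members of each receptor list (above) and secreted list (below) that were on, low or uneven, or silent in the 4 wild type libraries, with the number of members in brackets and a dashed line at the 46.7% on over all protein-coding named genes. Cytosolic sensors have the highest share on, and receptor tyrosine kinases and Wnt ligands have the lowest shares in their groups.

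Receptors for the colony stimulating factors, which keep macrophages alive, gave 6 of 9 on. The GM-CSF receptor alpha chain Csf2ra had 439, 571, 418 and 424 TPM, the shared beta chain Csf2rb 215, 255, 180.2 and 200.2 TPM and its paralog Csf2rb2, which serves IL-3, 77.8, 87.9, 64.4 and 66.4 TPM. The receptor of M-CSF, Csf1r, had 142, 149, 132 and 121 TPM. Csf2ra was above Csf1r in each of the 4 libraries, and so was Csf2rb. Il3ra was on at 45.5 ± 9.64 TPM and the G-CSF receptor Csf3r at 9.1 ± 3.21 TPM. The stem cell factor receptor Kit was at 0 in all libraries, and Flt3 and Il5ra had 0 counts in at least 1 of them. Shared stretches make up 5.93% of those of Csf2rb, so a part of its reads could belong to Csf2rb2.

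Of 36 receptors of type I and II cytokines, 18 were on, led by Ifngr1 (159 ± 3.63 TPM) for interferon gamma, Crlf2 (141 ± 9.32 TPM) for the epithelial cytokine TSLP and Il10rb (67.6 ± 8.73 TPM). The TGF-beta receptors Tgfbr2 and Tgfbr1 had 206 ± 33.8 and 181 ± 17.5 TPM, and 9 of the 14 receptors of that superfamily were on, with Acvr1b at 46.2 ± 7.53 TPM. Both TNF receptors were on, Tnfrsf1b at 161 ± 25.7 TPM and Tnfrsf1a at 145 ± 7.26 TPM, as were 9 of 24 in the superfamily. The list for IL-1 and IL-17 receptors held only 4 of 15 on, with Il17ra (141 ± 23.3 TPM) and the IL-36 receptor Il1rl2 (41.1 ± 2.8 TPM) far above Il1r1 (2.53 ± 0.684 TPM). The IL-33 receptor Il1rl1 had 0, 0.874, 0.432 and 0.082 TPM and the decoy receptor Il1r2 was silent.

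Pattern recognition receptors were on more often than not. Among Toll-like receptors, which sense microbial molecules at the surface and in endosomes, 8 of 12 were on and none was silent. Tlr2, the receptor of bacterial lipopeptides, was the most abundant with 388, 401, 402 and 362 TPM. Tlr8 (90.1, 96.1, 72.7 and 68.7 TPM) and the endotoxin receptor Tlr4 (83.4, 79.7, 81.1 and 80.8 TPM) followed with overlapping ranges. Tlr7 (66.6, 75.8, 58.4 and 74.3 TPM) overlapped Tlr8 but lay below Tlr4 in each library, and Tlr13 was at 41.1 ± 6.66 TPM. The flagellin receptor Tlr5 had 17.9, 18.2, 5.33 and 17.3 TPM, lowest in wild type 3, and Tlr6 and Tlr3 had 11.3 ± 2.41 and 3.97 ± 0.992 TPM. Tlr9, the DNA sensor, had 0.85, 0.888, 1.37 and 1.27 TPM and missed the mark for on in at least 1 library, and Tlr1, Tlr11 and Tlr12 were not on either. Of 15 sensors of the cytosol, 14 were on, led by Naip2 (77.8 ± 10.5 TPM), Sting1 (41.8 ± 5.15 TPM) and Nlrp3 (41.3 ± 6.75 TPM), and the pyrin gene Mefv was at 0.

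C-type lectin receptors were on in 18 of 33 cases (54.5%, beside 46.7% over all protein-coding genes), and the list ran over a wide range of levels. Clec7a, which encodes the beta-glucan receptor dectin-1, had 1832, 1645, 1889.9 and 1851 TPM. Clec4n, the gene of dectin-2, had 814, 731, 828 and 821 TPM, and the mannose receptor Mrc1 had 642, 744, 532 and 616 TPM. Against this, Cd209c, Cd209f, Clec4f, Clec4g and Cd207 were at 0. Among scavenger receptors, 10 of 18 were on, with Cd68, Cd36 (497 ± 16.6 TPM) and Marco in the lead, and the haemoglobin receptor Cd163 had 0, 0, 0.279 and 0 TPM. The list for uptake of dying cells had 9 of 15 on, with the receptor tyrosine kinases Axl (606 ± 75.4 TPM) and Mertk (146 ± 24.7 TPM), the endocytic receptor Lrp1 (246 ± 30.6 TPM), the lipid receptor Cd300lf (178 ± 27.5 TPM) and the bridging protein gene Pros1 (160.1 ± 25.9 TPM). The third kinase of this family, Tyro3, was at 0, as were Havcr1 and Adgrb1, and the ligand Gas6 had 0.277, 0.684, 0 and 0 TPM.

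Fc receptors gave 6 of 13 on (46.2%), close to the 46.7% of all protein-coding genes. Their shared signalling chain Fcer1g had 1679.8, 1657, 1548 and 1646 TPM, the low-affinity receptor Fcgr3 599 ± 43.4 TPM, the neonatal receptor Fcgrt 476 ± 41.3 TPM, Fcgr4 127 ± 13 TPM, the inhibitory Fcgr2b 126 ± 26.9 TPM and the high-affinity Fcgr1 58.5 ± 6.91 TPM. The IgE receptor alpha chain Fcer1a was at 0. Complement receptors were on in 7 of 10 cases, led by the beta integrin chain Itgb2 (1081 ± 94.6 TPM), Itgax and the C5a receptor C5ar1 (209.5 ± 27.8 TPM), whereas Cr2 and Vsig4 were at 0. Siglecs were on in 6 of 9, with Siglecf followed by Siglec1 (126 ± 13.6 TPM), Cd33 (105 ± 9.91 TPM), Cd22 (55.6 ± 8.66 TPM), Siglece (44.9 ± 4.58 TPM) and Mag (22.4 ± 5.11 TPM). Siglecf was above each other Siglec in all 4 libraries.

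Chemokine receptors were on in 8 of 24 cases and at 0 in 9. Ccr1 (157, 125, 141 and 155 TPM) and Cxcr4 (113, 173, 103 and 148 TPM) were the highest, with overlapping ranges. Ccrl2, a non-signalling receptor of chemerin, had 51.4, 48.2, 126 and 55 TPM and reached 2.44 times the mean of the other libraries in wild type 3. Cxcr1 was on at 23.2 ± 6.59 TPM. Ccr7 and Cxcr2 were highest in wild type 3, with 13.1 and 5.97 TPM there, and without it were at 4.06 ± 1.97 and 2.37 ± 0.24 TPM (SD, n = 3). Ccr4, Ccr8, Ccr9, Ccr10, Ackr1, Ackr2, Ackr3 and Ackr4 were at 0, and Cx3cr1, a receptor of monocytes and many resident macrophages, had 2.07, 0.662, 0 and 1.26 TPM. The formyl peptide receptors Fpr1 and Fpr2 had 499 ± 34.5 and 456 ± 10.8 TPM and shared no stretch of 85 bases. Among prostaglandin receptors Ptger1 (53.9 ± 11.4 TPM) led, and Ptger3, Ptgdr and Ptgfr were at 0. Purine receptors were on in 10 of 19 cases (52.6%, beside 46.7% over all protein-coding genes), with P2ry14 (100.2 ± 13.1 TPM), P2rx4 (75.8 ± 5.55 TPM) and P2ry6 (64.4 ± 6.17 TPM) highest.

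Nuclear receptors, the transcription factors that bind lipids and hormones, divided into 20 of 49 on and 22 at 0 counts in every library. Those on were led by Pparg, Nr4a1 (48.8, 112, 174 and 81.6 TPM, highest in wild type 3) and Rxra, the partner of PPARG (88.4 ± 13.9 TPM). The related Ppard was on at 20.1 ± 4.99 TPM, while Ppara, the receptor that drives fatty acid oxidation in liver, was at 0. Both LXR genes were on, Nr1h2 at 83.3 ± 12.4 TPM and Nr1h3 at 50 ± 8.83 TPM, as were the glucocorticoid receptor Nr3c1 (39.7 ± 8.59 TPM) and the vitamin D receptor Vdr (20.8 ± 4.63 TPM). Receptor tyrosine kinases were on in 7 of 58 cases and silent in 31, a lower share on than in the other receptor lists. The 7 were Axl, Mertk, Csf1r, the VEGF receptor Flt1 (36.3 ± 6.68 TPM), the insulin receptor Insr (16.8 ± 1.74 TPM), Aatk and Lmtk2. Among integrins, 12 of 26 were on (46.2%, beside 46.7% over all protein-coding genes), with Itgb2, Itgax and Itgb1 (285 ± 42.3 TPM) highest. Notch2 (43.6 ± 4.87 TPM) led the Notch and Frizzled receptors, of which 6 of 14 were on, and Notch3 and Notch4 were at 0.

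Genes of secreted proteins came from 11 lists with 289 genes, of which 73 (25.3%) were on and 128 (44.3%) silent, beside 46.7% on and 39.1% silent over all protein-coding genes. A few very abundant genes made the sum large, with 8.26, 7.46, 11.7 and 9.24% of all TPM in the 4 libraries. The highest share was in wild type 3, where Chil3 was highest. Without that library 77 of the genes were on and 133 silent.

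Antimicrobial and chitinase-like proteins formed the largest part of the secreted sum, with 15 of 33 on. They included Chil3, Lyz2, Ear2, Lyz1, Chil4 and Ear1, and also Slpi, an inhibitor of neutrophil elastase, at 325 ± 11.3 TPM. Retnla, a resistin-like protein induced by type 2 cytokines, had 12.8, 11.7, 108 and 22.1 TPM and was highest in wild type 3. Lcn2, Bpi and Defb1 were at 0, and Chil1 had 0, 0, 0 and 1.39 TPM.

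CC chemokines were on in 7 of 19 cases, and a single member held nearly all of their sum. Ccl6 had 12848, 10864, 13136 and 12606 TPM, whereas the next by mean level, Ccl17, had 74.1, 37.3, 740.4 and 164 TPM. Ccl17 attracts T cells through CCR4, and its level in wild type 3 was 8.06 times the mean of the other libraries, 91.8 ± 65.2 TPM (SD, n = 3). Ccl22, another ligand of CCR4, had 11.8, 13.2, 75.8 and 17.1 TPM and was also highest in wild type 3. Without wild type 3, Ccl22 was at 14 ± 2.73 TPM (SD, n = 3). Ccl9 had 188, 156, 304 and 158 TPM, above Ccl17 in wild type 1 and 2, and without wild type 3 its mean of 167 TPM was also above that of Ccl17. Ccl3 had 52.9, 81.5, 145 and 62.3 TPM, Ccl4 10.6, 2.8, 22 and 3.68 TPM (5.7 ± 4.29 TPM without wild type 3) and Ccl25 4.32, 1.27, 5.41 and 1.85 TPM. Ccl1, Ccl7, Ccl8, Ccl11, Ccl19, Ccl20, Ccl26 and Ccl28 were at 0, and Ccl2, the monocyte attractant, had 0.989, 3.44, 14.9 and 1.77 TPM. Ccl6 overlaps another counted gene, and since no strand setting is known its level may hold reads of that gene.

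Among chemokines of the other classes, 7 of 17 were on. Cxcl2, an attractant of neutrophils, had 61.3, 136, 431 and 179.7 TPM, and its relatives Cxcl1 and Cxcl3 had 2.42, 6.38, 79.9 and 5.68 and 9.21, 5.1, 54.9 and 8.95 TPM. All were highest in wild type 3, and Cxcl1 and Cxcl2 were lowest in wild type 1, so their means describe no single library. Without wild type 3, Cxcl1 was at 4.83 ± 2.11 TPM, Cxcl2 at 126 ± 59.9 TPM and Cxcl3 at 7.75 ± 2.3 TPM (SD, n = 3). Cx3cl1, the ligand of CX3CR1, had 38.6, 43.3, 27.6 and 24.2 TPM, and Cxcl14 and Pf4 were at 4.59 ± 0.968 and 4.17 ± 1.08 TPM. Cxcl16 had 2.34, 3.02, 8.96 and 3.18 TPM, highest in wild type 3, and was at 2.85 ± 0.443 TPM without it (SD, n = 3). Cxcl5, Cxcl11, Cxcl13, Ppbp and Xcl1 were at 0.

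Interleukins and related cytokines were on in 12 of 44 cases and silent in 19. Il18 had 1103, 1008, 1030.4 and 1123 TPM, and its secretion is known to need the inflammasome. The IL-1 receptor antagonist Il1rn had 274, 295, 224 and 262 TPM, oncostatin M, Osm, 81.3, 131, 259.8 and 117 TPM, and Il1b 44.2, 36.9, 121 and 55.7 TPM, the last pair highest in wild type 3. The silent genes included Il3, Il4, Il5, Il10, Il12a, Il23a, Ifnb1, Ifng, Csf2, Csf3 and Il34, all with 0 counts. The transcript of GM-CSF itself, Csf2, was thus not detected in cells with high levels of its receptor transcripts, and 0 counts allow up to 0.364 TPM of it in any library. The M-CSF gene Csf1 had 0.974, 1.9, 2.66 and 0.872 TPM. Tnf had 41, 50.2, 229 and 60.1 TPM and was highest in wild type 3, without which it was at 50.4 ± 9.56 TPM (SD, n = 3). Tnfsf13 and Tnfsf12 were at 43.1 ± 5.87 and 18.4 ± 2.06 TPM. Other TNF ligands were not on, and Lta, Fasl, Cd70, Tnfsf8, Tnfsf11 and Tnfsf18 were at 0.

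Growth factors were on in 8 of 46 cases. Progranulin (Grn), a lysosomal and secreted protein, had 755, 870.4, 644 and 756 TPM, osteopontin (Spp1) 512, 514, 483 and 505 TPM and Tgfb1 343, 377, 347 and 341 TPM. Tgfb1 was therefore on together with both of its receptor genes, whereas Tgfb3 was at 0 and Tgfb2 at 0.294 ± 0.225 TPM. Igf1 and Hgf were on at 9.57 ± 5.82 and 9.55 ± 1.42 TPM, and Vegfa had 0.0382, 0.332, 0.901 and 0 TPM. No Wnt ligand of 19 was on, and 12 were at 0. The highest of them, Wnt5b, had 0.504, 1.43, 0 and 2.23 TPM.

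Complement components gave 6 of 29 on, led by genes of the alternative pathway and C3. Properdin (Cfp) had 218 ± 37.2 TPM, factor B (Cfb) 121 ± 8.32 TPM and C3 119.8 ± 5.47 TPM. Coagulation genes were on in 9 of 25 cases, with the urokinase receptor Plaur (489 ± 60.7 TPM), factor VII (F7, 452 ± 59.5 TPM) and Pros1 highest and factor X (F10) at 147 ± 9.11 TPM. Tissue factor (F3), which starts coagulation with factor VII, was at 0, as were the fibrinogen genes Fga, Fgb and Fgg. Of the matrix metalloproteinases and their inhibitors, 4 of 26 were on. The macrophage elastase Mmp12 had 55.8, 46.5, 346 and 79.4 TPM, and in wild type 3 it was 5.71 times the mean of the other libraries, 60.6 ± 16.9 TPM (SD, n = 3). Mmp19 and Mmp8 had 50.1 ± 4.41 and 22.6 ± 8.25 TPM, while Mmp9 had 0, 0.344, 0.918 and 0.387 TPM. Apolipoproteins were on in 2 of 14 cases, Apoe and Apoc1 (23.5 ± 7.32 TPM), and Apoa1 and Apob were at 0.

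Groups of lysosomal and lipid-handling genes, also chosen with earlier results of these data known, differed in the share that was on. Of 23 cathepsins 11 were on and 11 at 0 (47.8% each), beside 46.7% on and 39.1% silent over all protein-coding genes, with most of the latter from the cluster of cathepsins of the rodent placenta. Their sum lay between 17152 and 18752 TPM, with Ctsd, Ctss and Ctsz (1259 ± 92 TPM) highest. The proton pump that acidifies lysosomes had 16 of 22 subunit genes on (72.7%). Lipid uptake and storage genes were on in 28 of 33 cases (84.8%), and the lipid droplet protein gene Plin2 (1572, 1507, 1237 and 1450.4 TPM), Fabp1 (959, 750.1, 722 and 717 TPM) and Lpl (744, 990.1, 656 and 724 TPM) led them. All 13 genes of MHC class I presentation were on, with B2m at 2874 ± 375 TPM and H2-D1 at 1443 ± 169 TPM. In the class II list 10 of 14 were on, and the peptide loading gene H2-DMa (640.2, 624, 567 and 606 TPM) was above Cd74 and H2-Ab1 in each library. The class II master regulator Ciita had 0.392, 0.88, 0.418 and 0.401 TPM. Cd74 and H2-Ab1 were highest in wild type 3, at 3.86 and 4.1 times the mean of the other libraries.

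Cell cycle genes were on without exception among the 27 genes of S phase and the 28 of G2 and mitosis that were listed. The share on over all protein-coding genes was 46.7%, and the lists were chosen with earlier results of these data known. The sliding clamp Pcna had 375, 369.6, 332 and 408 TPM, the ribonucleotide reductase subunit Rrm2 95.3, 102, 75.8 and 85.2 TPM and the helicase subunit Mcm7 93.1, 85.9, 74.3 and 93.2 TPM. Ube2c, Ccnb2 and Cks2 had 82 ± 17.2, 77 ± 9.72 and 76 ± 8.49 TPM, and the proliferation marker Mki67 had 47.5, 52.1, 39.1 and 53 TPM. The sums of the S phase list ran from 1237 to 1535 TPM and those of the G2 and mitosis list from 907 to 1101 TPM. What share of the cells was cycling cannot be read from bulk libraries.

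Immediate early and heat shock genes, which are known to be induced by tissue dissociation and sorting as well as by signals in the tissue, were on in 23 of 26 cases. Fos had 796, 1696, 1603 and 1644 TPM and was lowest in wild type 1. Zfp36, which encodes an RNA-decay factor, had 424, 616, 969.7 and 699 TPM and Junb had 330.4, 637, 809.6 and 537 TPM. Egr1 had 14.9, 77.2, 228 and 100.3 TPM, highest in wild type 3 and at 64.2 ± 44.1 TPM without it (SD, n = 3). The sum of the list was between 4539 and 7767 TPM, lowest in wild type 1 and highest in wild type 3, the library that also had the highest Cxcl1, Cxcl2, Cxcl3 and Tnf. Induction in the tissue and during cell isolation cannot be told apart here.

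Large gene families of other lineages were largely silent. None of 1108 olfactory receptors, 353 vomeronasal receptors, 39 Hox genes, 6 Gata factors or 70 protocadherins was on, and the Hox gene with the highest mean, Hoxb7, had 0.754, 0, 0 and 1.57 TPM. Of 50 keratins 5 were on, led by Krt19 and Krt79 (301, 359, 286 and 289.9 TPM), whereas Krt5 and Krt14 of basal epithelium were silent and Krt8 and Krt18 had 0.519 ± 0.43 and 0.403 ± 0.806 TPM. Collagens were on in 2 of 44 cases, Col15a1 (8.33, 7.02, 7.19 and 9.22 TPM) and Col11a2 (2.02, 2.04, 1.34 and 1.39 TPM). Among Sox factors, Sox4 alone of 19 was on (6.15 ± 1.15 TPM). In contrast, 8 of 9 Irf factors and 6 of 7 Stat factors were on, with Irf8 at 63, 62.6, 62.1 and 67.6 TPM and Stat6, which relays IL-4 and IL-13, at 110.2, 126, 85.4 and 96.7 TPM. Annexins and S100 proteins were on in 8 of 12 (66.7%) and 8 of 16 cases (50%), the latter close to the 46.7% of all protein-coding genes, with Anxa2 (2525 ± 222 TPM), Anxa1 (1349 ± 98.2 TPM) and S100a10 (1779.9 ± 154 TPM) highest. Of 92 potassium channel genes 7 were on, led by Kcna3 (131 ± 20.7 TPM), and of 94 cytochromes P450 10 were on, led by Cyp4f18 (119.6 ± 9.2 TPM).

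Most genes varied little between the libraries. Over the 7589 genes with a mean of at least 10 TPM, the median SD of log2(TPM + 1) was 0.21, and 46 genes had an SD above 1 on that scale. Among genes of at least 300 bases, a limit chosen after the data were seen, the 8 most variable were Eif2s3y, Xist, Cxcl1, Rnase2a, Ccl17, Bphl, Rn7sk and Egr1. Rnase2a, a ribonuclease of the same family as Ear2, had 35, 17, 368 and 84.4 TPM, and 45.4 ± 34.9 TPM without wild type 3 (SD, n = 3). Bphl had 13.3, 14.9, 0.622 and 17.3 TPM and the noncoding RNA Rn7sk had 21.9, 35.5, 1.89 and 24.3 TPM, both lowest in wild type 3. Without the length limit, the list also held Igkj2, Igkj1, Iglj3, Snord100, Snord2 and Mir2861, all shorter than a read of 85 bases, whose length-scaled levels are uncertain.

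Wild type 3 accounted for most of the genes that a single library set apart. Of the 7561 genes with a mean of at least 10 TPM and at least 300 bases, it held 29 at 2-fold or more above the highest of the other libraries and 75 at 2-fold or more below the lowest. The same counts were 1 and 10 for wild type 1, 0 and 6 for wild type 2, and 2 and 5 for wild type 4. The 29 included 9 of the secreted lists (Ccl17, Cxcl2, Mmp12, Tnf, Il1b, Retnla, Ccl22, Cxcl1 and Cxcl3), 1 receptor (Ccrl2), and Cd74, H2-Ab1, H2-Aa, H2-Eb1, Egr1 and Ier3. Arg1, added here only because of its values, had 12.4, 11.9, 69.6 and 16.5 TPM. The 75 held no gene of the secreted lists and Tlr5 of the receptor lists. The secreted lists hold 289 named genes and the receptor lists 440. How many of these are among the 7561 was not counted, so no excess of either group can be read from these numbers. Markers of other cells in wild type 3 were measured beside the genes that this library set apart. The interstitial macrophage list, which holds Cd74 and H2-Ab1, summed to 1166 TPM there and to 380.3 to 447 TPM in the others, and the monocyte list to 873 TPM against 577 to 704 TPM. Most of the higher monocyte sum came from Fn1 and Nr4a1, with 489 and 174 TPM there and means of 385 and 81 TPM in the others. Its member Treml4 was lower there, with 16 TPM against a mean of 25.3 TPM. The B cell list summed to 20.9 TPM there and to 4.43 to 16.9 TPM in the others, and the neutrophil list to 151 TPM against 137 to 147 TPM. The dendritic cell list summed to 111 TPM against 117 to 130 TPM, and most of that sum was its member Bst2. Bst2 had 92.7 TPM in wild type 3 and a mean of 115 TPM in the others, whereas Cd209a had 4.14 and 2 TPM. Ccr7 was also higher in wild type 3, with 5.57, 1.83, 13.1 and 4.77 TPM in the 4 libraries. The part of such cells in the values of wild type 3 was not tested. Depth also moved with these values, as wild type 3 had the fewest counts, and its part in them was not tested. Thinning the counts to the smallest total kept all 275 named levels within their spread. It left wild type 3 itself unchanged, and random thinning does not shift expected levels, so it cannot decide this.

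**Figure D5:**
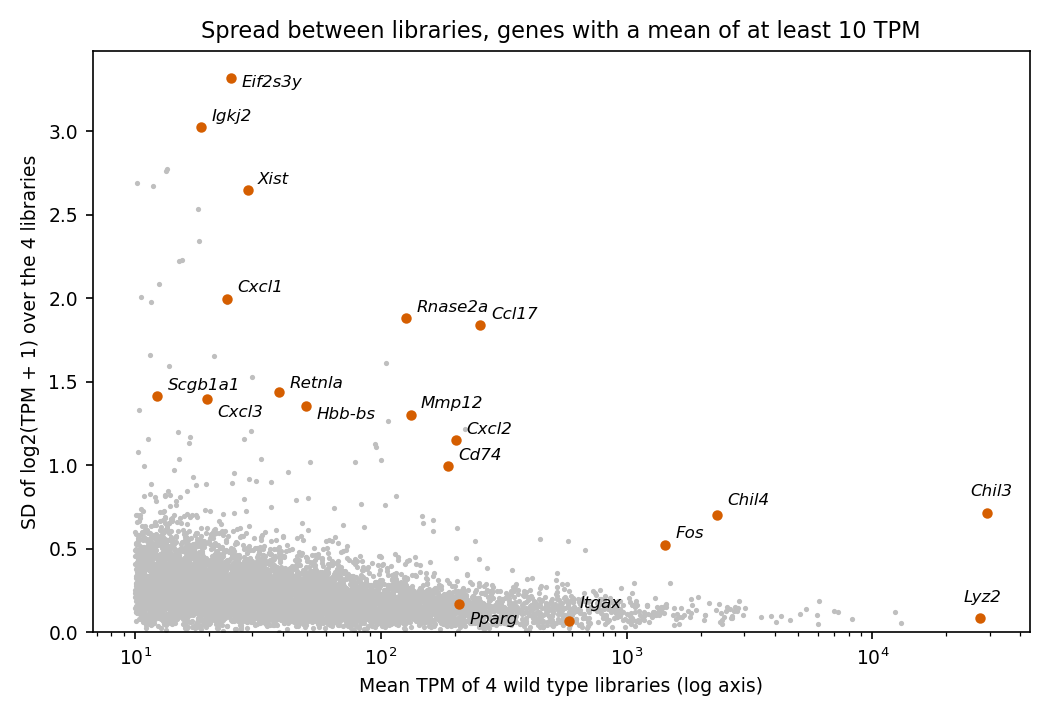
SD of log2(TPM + 1) over the 4 wild type libraries against the mean TPM on a log axis for the 7589 genes with a mean of at least 10 TPM, with genes named in the text labelled. Lyz2, Itgax and Pparg lie near the bottom, whereas Ccl17, Cxcl1, Rnase2a and the sex-linked Eif2s3y and Xist lie high.

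Length scaling changed the order of genes. Between the ranks by counts per 1e6 counts and by TPM, Lrp1, whose deposited length is 14892 bases, went from rank 26 to rank 634, and the scaffold gene Ahnak (18543 bases) from 184 to 2505. Akap13 went from 200 to 1933 and Eif4g2 from 155 to 942. In the other direction Fabp1 (492 bases) went from 821 to 175, Cox6c from 914 to 190, Ear10 from 955 to 188 and ATP8 (204 bases) from 2482 to 186. The 100 highest genes took 23.4% of counts when no length was applied.

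The promoters of the 14074 protein-coding genes with a single RefSeq window, from 250 bases before to 50 after the start, were set beside the states. The median number of CpG dinucleotides per window was 13 over all genes, 22 in genes that were on and 3 in silent genes. Genes of the alveolar macrophage signature were on in full, yet their windows held a median of 3 CpG (27 genes, quartiles 2 and 6), as did those of silent genes. Windows of secreted genes that were on held a median of 4 (49 genes), those of cytosolic ribosomal protein genes 21 (54 genes), of G2 and mitosis genes 25 (25 genes) and of the listed macrophage transcription factors 23 (23 genes). The letters TATAAA, on either strand, occurred in 14.1% of all windows, 6.45% of those of genes that were on, 23.1% of those of silent genes and 24% of those of the 100 most abundant of these 14074 genes, which differ from the 100 most abundant of all named genes. Between 45 and 16 bases before the start, on the gene's strand, the shares were 3.36%, 1.12%, 5.96% and 7% in the same order. The median share of G and C was 61% in windows of genes on and 48.7% in those of silent genes. The part of base content in the TATAAA shares was not tested. An 8-base core of the PU.1 site, GAGGAAGT on either strand, occurred in 3.32% of all windows, 3.53% of those of genes on, 3.08% of those of silent genes and 7% of those of the same 100. It occurred in 0% of the windows of the alveolar macrophage signature and 0% of those of the listed macrophage transcription factors. Its share was 5.56% in cytosolic ribosomal protein genes, 4% in G2 and mitosis genes and 8.16% in secreted genes that were on. These shares are descriptions of the sequence and carry no test.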

How the data were processed

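Polyadenylated RNA of sorted alveolar macrophages was sequenced as single reads of 85 bases, per the series text, and 4 wild type libraries were analysed. For each gene, the deposited tables give a whole-number count, an Entrez identifier and a length in bases. The 4 single-library tables equalled the joint table, which was used. Counts were made with featureCounts on mm10, per the submitters' processing notes. Not given in the sources used here: aligner, versions, annotation release and strand setting. No column of another series was present (0 other columns).

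Symbols and coordinates came from RefSeq's gene table of GRCm38.p6, which named 25275 of 27179 identifiers. The other 1904 took 6.6 ± 0.687% of TPM (SD, n = 4) and stayed in the denominator. Counts were divided by the deposited length and scaled to 1e6 per library with Python 3.11.15 and pandas 2.3.3. Long genes are counted with more reads, so precision grows with length and depth. Promoter windows were RefSeq's, aligned with Biopython 1.88. Alternatives were counts per 1e6 without length, minima of 0.5 and 2 TPM, TMM factors (edgeR 4.0.16) and DESeq2 1.42.0 size factors in R 4.3.3, counts thinned to the smallest total, a denominator of named genes and leaving out each library. Leaving out identifiers under 200 bases was chosen after seeing the data. The script was tested on simulated data.

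The 89 gene lists and the members were chosen with earlier results of these data known. Genes were named by rule: the 5 markers, the 30 highest by mean TPM, the 3 highest members on of each list (all where 5 or fewer were on, the highest where none was), all members on of the colony stimulating factor receptor, Toll-like receptor, Siglec, Fc receptor, chemokine receptor and chemokine lists, the 8 most variable, and 4 in each direction by change of rank. Predicted gene models were left out, and list members may be named by their state. Other genes were named after their values were seen. With the 8 most variable of at least 300 bases, added after seeing the data, this gave 275 genes, of which 51 overlap another counted gene, so their reads cannot be assigned for certain. A few genes of this rule are not reported here.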

Additional observations from a re-analysis of the deposited data

Results flagged for a closer look

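A library was set apart where its distance to the nearest of the other 3, as a share of the range of all 4, was above Dixon's 95% critical value, a gap that chance gives in about 1 in 20 groups of 4. Of 275 genes named in the text, 32 met this (26 of them on), and wild type 3 was the library apart in 16, wild type 2 in 8, and wild type 1 and wild type 4 in 4 each. Over the 7589 genes with a mean of at least 10 TPM it was met by 400, or 5.27%. The 275 include genes picked for their spread between these same libraries and genes near 0 TPM. Their number is therefore not comparable with that share.

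Wild type 3 was set apart above the other libraries in Ccl22 (share of the range 0.918), Ccrl2 (0.912), Cd74 (0.894), H2-Ab1 (0.9), Cxcl1 (0.949), Cxcl3 (0.918), Cxcl16 (0.874), Cxcr2 (0.883), Mmp12 (0.89), Tnf (0.898) and Il5ra (1). It was set apart below them in Abca3 (0.925), Anxa5 (0.911), Nfatc1 (0.842), Stat3 (0.872) and Tlr5 (0.925). Secreted and MHC class II genes were thus among those above, and none of the secreted lists was among those below.

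Wild type 2 was set apart above the others in Crlf2 (0.889), Csf2ra (0.86), Tgfb1 (0.832), Iglj3 (1) and Lrrn4 (1) and below them in Clec4n (0.849), Rpl8 (0.845) and Rps14 (0.863). The share of the range does not measure the size of a difference. Tgfb1, for example, had 377 TPM in wild type 2 and 341 to 347 TPM in the others. Wild type 1 was apart in Fos (0.897, low), Fabp1 (0.862, high), Gata1 (1, high) and Prss34 (1, high). Wild type 4 was apart in Eif2s3y (1, high), Cd36 (0.859, high), Irf8 (0.84, high) and Napsa (0.838, low). The value of 1 for Il5ra, Lrrn4, Gata1, Prss34, Iglj3 and Eif2s3y means that the other 3 libraries were all at 0. Any count in a single library gives this value, however low the level.

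Summed levels of marker lists were set apart by a single library for interstitial macrophages (0.915, wild type 3), eosinophils (0.924, wild type 3), mast cells and basophils (0.958, wild type 1), the type 2 epithelium (0.846, wild type 4, low) and club cells (0.879, wild type 4). Wild type 3 was also apart in the number of genes it missed (0.924) and in the number more than 2-fold under the median of the other libraries (0.936).

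Identifiers without a symbol, which enter no comparison, took 6.6% of TPM on average. An identifier of 82 bases, shorter than a read, had 32018, 25686, 30515 and 22219 TPM, which would rank with Chil3 and Lyz2, and another of 938 bases had a mean of 7732 ± 1848 TPM (SD, n = 4).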

How the results depend on the processing

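The number of named genes on lay between 9624 and 10620 over the alternatives, against 10233. Without length scaling, the 100 highest genes took 23.4%, not 29.9%, and lists with few members on changed: T cell 2 (from 1), club cell 0 (from 1), ciliated cell 1 (from 2), smooth muscle and pericyte 1 (from 2), vomeronasal receptors 1 (from 0) and collagens 4 (from 2). With a minimum of 0.5 TPM there were 2 T cell, 4 B cell, 5 TNF ligand and 1 vomeronasal genes on. With 2 TPM there were 1 peritoneal macrophage, 1 dendritic cell, 0 T cell, 0 B cell, 1 ciliated cell, 1 smooth muscle and 1 collagen genes on. TMM and DESeq2 size factors each gave 1 B cell and 1 smooth muscle gene. Leaving out 1 library gave 1 to 2 T cell and 0 to 1 sex-linked genes. All other list counts stayed within 1.5 times. Of 275 levels, 193 moved by more than 1 SD without length scaling, 38 with named genes in the denominator, and 9 of 268 without identifiers under 200 bases (chosen after seeing the data). Thinning moved none. No paired analysis was possible because there is a single group. Depth limits statements on low genes, and 2180 genes had 0 counts in a library and at least 10 in another.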
